A study of Homo sapiens with 8 samples.

Results

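DNAJ proteins, also called Hsp40 or J proteins, are the cochaperones that hand substrates to Hsp70 and switch on its ATPase. Their transcripts were followed in MCF-10A cells, a non-tumorigenic human breast epithelial line, with and without the Hsp70 inhibitor JG-98. The genes were taken by symbol: DNAJA, DNAJB or DNAJC followed by a number, protein-coding, with at least 10 counts in 2 or more libraries. Of 44 such protein-coding genes (1 gene of class C was left out by name), 36 met the count rule, 3 of class A, 9 of class B and 24 of class C, and all 36 were tested among 17693 genes. The count table listed 60617 genes in all.

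The series compared 2 lines, labelled Empty and NeuT, each left untreated or given 1 µM JG-98 for 12 h, with 2 libraries in each of the 4 groups. Its stated purpose was to compare the sensitivity of transformed cells to JG-98. What the name NeuT stands for is not explained in the labels, and whether either line is 1 clone is not given in the sources used here. All 4 groups grew in the same medium with horse serum, epidermal growth factor, insulin, hydrocortisone and cholera toxin, and differed by line and by JG-98. Nothing in the labels says that replicates came from separate cultures, so p-values measure the spread between these libraries, which may be technical.

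J proteins share a J domain that docks on Hsp70 and speeds its ATP hydrolysis, which locks the substrate into the chaperone. Class A proteins keep the glycine-rich linker and zinc-binding repeats of bacterial DnaJ, class B proteins keep the linker without the repeats, and class C proteins share only the J domain. Class A and B proteins mostly feed unfolded clients to Hsp70, whereas many class C proteins tether Hsp70 to 1 place or job, such as the mitochondrial import motor, clathrin uncoating, the ribosome or the lumen of the endoplasmic reticulum (ER).

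Total counts were 37341458 in replicate 1 of Empty with JG-98 and 55050996 to 56861971 in the other 7 libraries. Replicates of a group differed by more than sampling noise: the mean chi-square per gene was 4.52 to 8.20 in 3 groups and 22.0 between the NeuT libraries with JG-98. All 12 breast epithelial markers were tested, with a summed level of 29432 to 30853 CPM (counts scaled for depth with TMM factors) in the Empty libraries and 40881 to 42792 CPM in the NeuT libraries. A fibroblast list, of which 4 of 7 genes were tested, summed to 8.52 to 9.81 CPM in Empty and 68.4 to 83.0 CPM in NeuT, with PDGFRA and LUM at 3 counts or fewer in every library. Its part in the differences between lines was not tested. Immune markers summed to at most 0.526 CPM, adipocyte markers to at most 0.259 CPM and endothelial markers to at most 17.5 CPM. These are bulk samples, so fewer cells of a type and less RNA per cell cannot be told apart.

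Compared per kilobase of exon, DNAJA1 was the most abundant DNAJ transcript in every group and DNAJB1 came next in every group. DNAJA1 encodes a farnesylated cytosolic cochaperone of Hsc70, and DNAJB1 is the heat-inducible J protein of the cytosol. DNAJA1 had 112 CPM per kb in untreated Empty, 106 in Empty with JG-98, 92.9 in untreated NeuT and 87.5 in NeuT with JG-98, each the mean of 2 libraries. DNAJB1 had 65.1, 72.1, 73.1 and 73.4 CPM per kb in the same order. The gap between them was wider than the replicate spread in every group, since the lowest DNAJA1 library stood at 86.7 and the highest DNAJB1 library at 74.1 CPM per kb.

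**Figure D1:**
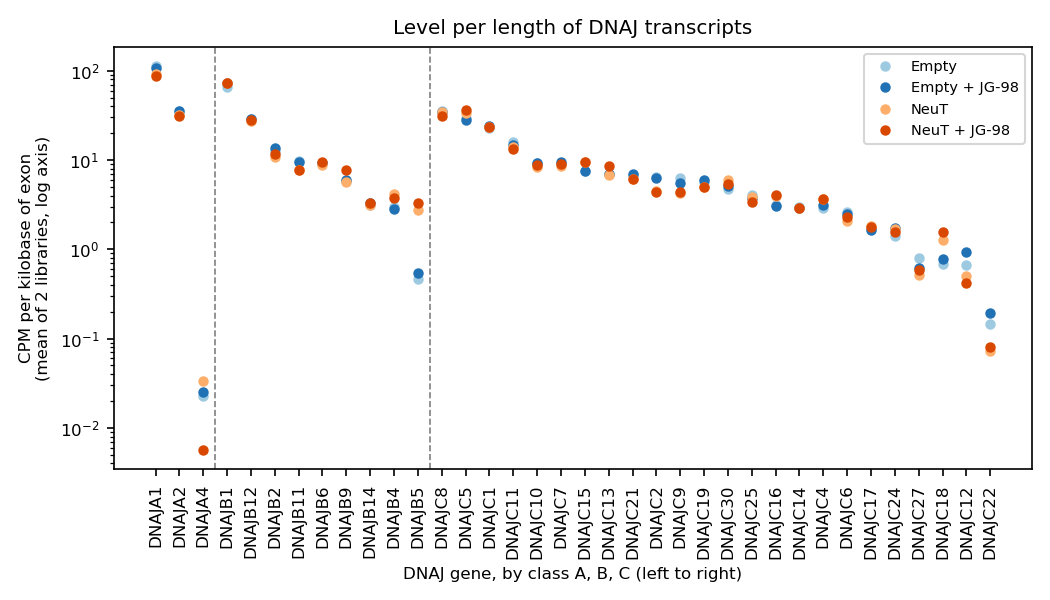
Mean level of each DNAJ transcript in CPM per kilobase of exon (log axis) in the 4 groups, with dashed lines between classes A, B and C. DNAJA1 and DNAJB1 are highest in all 4 groups, from 87.5 to 112 and from 65.1 to 73.4 CPM per kb, and DNAJA4 is lowest in all 4.

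A second tier followed, whose order changed between groups. DNAJA2, another cytosolic class A protein, had 31.0 to 35.7 CPM per kb as group means, DNAJC8, a splicing-associated nuclear protein, 31.5 to 35.4, and DNAJC5, the cysteine string protein of secretory vesicles, 28.4 to 36.0. DNAJB12, an ER membrane protein whose J domain faces the cytosol, had 27.5 to 28.997 CPM per kb. DNAJC1, which spans the ER membrane and binds ribosomes, had 22.7 to 24.1. In NeuT with JG-98, for example, DNAJC5 stood at 36.0 ± 2.89 and DNAJC8 at 31.5 ± 3.47 CPM per kb (SD, n = 2). The lower library of DNAJC5 and the higher of DNAJC8 were both at 33.9, so these neighbours were not separated beyond their spread. At the other end, DNAJC22 (0.0735 to 0.191 CPM per kb) and DNAJA4 (0.00561 to 0.0334) were the 2 lowest members in every group.

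Class medians over the 8 libraries were 33.5 CPM per kb for class A, 8.70 for class B and 5.20 for class C, against 2.50 over all genes tested. The 3 genes of class A ran from DNAJA4 at 0.0218 to DNAJA1 at 99.8 CPM per kb, so the class median describes little beyond DNAJA2. The summed level of the members stayed between 453.6 and 478.3 CPM per kb in all 8 libraries. Class A made up 29.7% to 31.5% of that sum in the Empty libraries and 25.7% to 27.5% in the NeuT libraries, without overlap. DNAJA1 alone took 22.2% to 24.2% in Empty and 19.1% to 20.4% in NeuT. Class B took 28.9% to 31.3% in Empty and 31.4% to 32.8% in NeuT, and class C 39.0% to 39.7% and 40.9% to 41.4%. These are shares of 1 sum, so a lower share of 1 class raises the others. As summed levels, class A stood at 139 to 150 CPM per kb in Empty and 117 to 126 in NeuT. Class B stood at 137 to 147 and 143 to 149, and class C at 183 to 188 and 186 to 188. The lines overlapped in the levels of classes B and C.

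The other 8 symbols fell below the count rule. DNAJC5G was at 0 in all 8 libraries. At 3 counts, that allows a level of up to 0.0511 to 0.0787 CPM, depending on the library. The readthrough gene DNAJC25-GNG10 was also listed at 0, but it shares 99.8% of its exonic bases with DNAJC25 and GNG10, so its level is not limited by that count. Such limits cover counting error only, because reads amplified by PCR were not tagged per molecule. DNAJB7, DNAJB8, DNAJC5B and DNAJC28 had at most 4 counts in any library and DNAJB13 at most 8. DNAJA3, which encodes the class A protein of the mitochondrial matrix, had 5, 3, 3 and 2 counts in the Empty libraries and 0, 1, 1 and 0 in the NeuT libraries. The gene (chr16:4425805-4456775, plus strand, GRCh38) overlaps no exon of another gene. All 9 other protein-coding genes within 150 kb of it also had a mean under 50 counts, against 42.2% of all 19922 protein-coding genes, and the highest of the 9 had 43.3. The genes on either side of that stretch, TFAP4 and UBALD1, had means of 1525 and 1619 counts. The cause of the low counts along this stretch was not tested, so DNAJA3 is not read here as silent.

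Heat shock genes of this family are known for heat shock elements (HSE), alternating GAA and TTC units bound by the transcription factor HSF1. In promoter windows of RefSeq (GRCh38.p14), from 250 bases before to 50 bases after the start, 33 of the 36 members had at least 1 window, 45 in all. An HSE of 3 alternating units, each pair set 2 bases apart, on either strand, was found in the windows of 2 members, DNAJA1 and DNAJB6, and in 0.490% of all 35116 windows. A 2-unit HSE (GAANNTTC or TTCNNGAA), which every 3-unit match contains, was found in 7 members (DNAJA1, DNAJA4, DNAJB1, DNAJB4, DNAJB6, DNAJC6 and DNAJC15), in 8 of the 45 member windows, against 13.5% of all windows. The ER stress element (CCAAT, 9 bases of any kind, then CCACG), searched on both strands, matched no member window and 0.0769% of all windows. TGATGNAA, the C/EBP-ATF element, likewise matched DNAJA4 and 3.62% of all windows. The windows of DNAJA1, DNAJB1 and DNAJB6 are shown because they hold HSE letters and the levels of these genes under an Hsp70 inhibitor are given below. DNAJB5 is shown beside them as the close relative of DNAJB1 that differed most between the lines; its window holds no HSE match. Each runs 5′ to 3′ on the gene's strand, with 2-unit HSE matches in capitals. A match is a description of the letters, not a shown binding site. The windows lie at chr9:33025023-33025322 (plus strand) for DNAJA1, chr19:14518348-14518647 (minus strand) for DNAJB1, chr7:157336754-157337053 (plus strand) for DNAJB6 and chr9:34990040-34990339 (plus strand) for DNAJB5.
DNAJA1: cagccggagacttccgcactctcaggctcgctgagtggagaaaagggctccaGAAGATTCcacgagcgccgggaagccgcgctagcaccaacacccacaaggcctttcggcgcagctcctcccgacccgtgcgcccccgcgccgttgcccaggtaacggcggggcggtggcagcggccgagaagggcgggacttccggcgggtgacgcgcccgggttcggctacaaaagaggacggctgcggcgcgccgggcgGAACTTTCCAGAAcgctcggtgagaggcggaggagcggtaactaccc
DNAJB1: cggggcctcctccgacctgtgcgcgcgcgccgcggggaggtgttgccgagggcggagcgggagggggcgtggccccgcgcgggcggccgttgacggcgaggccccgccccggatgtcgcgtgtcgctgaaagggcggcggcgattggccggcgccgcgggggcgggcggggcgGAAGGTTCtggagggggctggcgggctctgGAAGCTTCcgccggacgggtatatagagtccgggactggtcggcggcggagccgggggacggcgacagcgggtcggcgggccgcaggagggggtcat
DNAJB6: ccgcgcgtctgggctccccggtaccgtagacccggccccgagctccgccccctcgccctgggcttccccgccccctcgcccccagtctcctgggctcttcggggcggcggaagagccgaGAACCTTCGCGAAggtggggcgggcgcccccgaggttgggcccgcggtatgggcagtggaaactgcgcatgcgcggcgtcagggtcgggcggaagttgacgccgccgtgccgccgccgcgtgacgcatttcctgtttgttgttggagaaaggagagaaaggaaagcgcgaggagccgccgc
DNAJB5: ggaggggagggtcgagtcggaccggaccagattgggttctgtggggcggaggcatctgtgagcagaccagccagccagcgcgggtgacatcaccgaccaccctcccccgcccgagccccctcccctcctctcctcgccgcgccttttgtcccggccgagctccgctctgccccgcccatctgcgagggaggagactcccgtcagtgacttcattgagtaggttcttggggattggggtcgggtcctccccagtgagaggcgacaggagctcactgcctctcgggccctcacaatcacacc
In DNAJA1 the 3-unit match begins at base 4 after the start, inside the first exon, and a separate 2-unit match begins 198 bases before the start. DNAJB1 has 3 windows, of which the 1 with most matches is shown: its 2 matches begin 77 and 47 bases before the start. Another of its windows holds 1 match and the remaining window 0. In DNAJB6 the 3-unit match begins 131 bases before the start.

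Few of these transcripts passed the test for a change with JG-98 after 12 h. In the Empty line, 0 of 36 members passed an adjusted p under 0.05 (edgeR's quasi-likelihood test, Benjamini-Hochberg over all genes), against 0.339% of all genes tested. In the NeuT line 1 of 36 passed, DNAJB9, against 3.01% of all genes. At an unadjusted p under 0.05 there were 2 members in Empty (DNAJB1 and DNAJC24) and 4 in NeuT (DNAJA4, DNAJB5, DNAJB9 and DNAJC13), against 9.83% and 16% of all genes. These counts are no higher than the background. DESeq2 called 0 members in Empty and 1 in NeuT, and limma-voom 0 and 1.

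The intervals were narrow for most members. The 95% interval of the fold change lay within 1.5-fold either way for 32 of 36 members in Empty and 30 of 36 in NeuT, against 62.8% and 61.7% of all genes. In Empty the 4 wider ones were DNAJA4, DNAJC12, DNAJC22 and DNAJC27, all low in counts. In NeuT the same 4 were joined by DNAJB9 and DNAJC13. By class, the median log2 fold change with JG-98 in Empty was 0.02 for class A, 0.01 for class B and -0.02 for class C, and in NeuT -0.09, 0.08 and 0.00, against 0.00 over all genes in both lines.

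**Figure D2:**
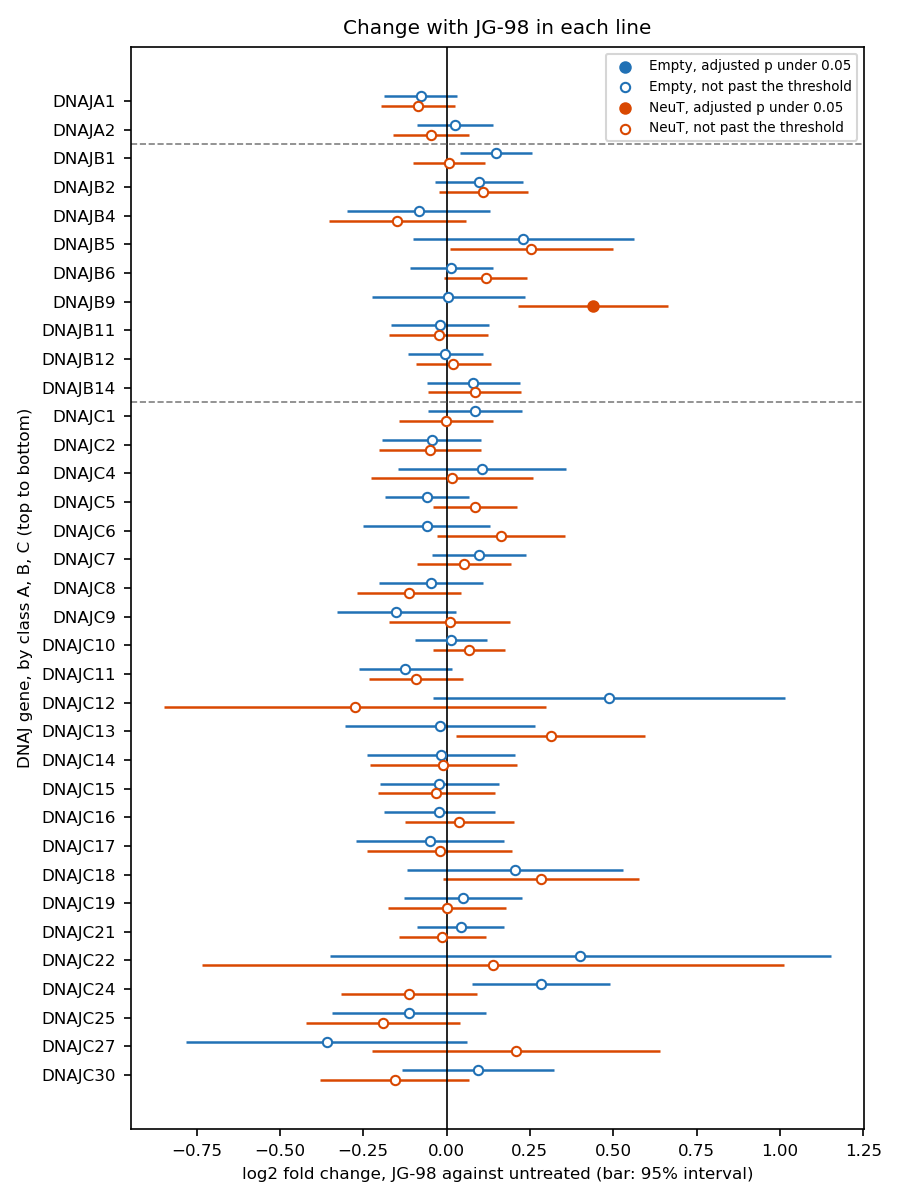
Log2 fold change with JG-98 in Empty (blue) and NeuT (orange) for 35 DNAJ genes, with 95% intervals as bars; filled points passed an adjusted p of 0.05, and DNAJA4, with at most 16 counts, is left out. One filled point is seen, DNAJB9 in NeuT at 0.44.

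DNAJB9, also called ERdj4, is an ER-lumen J protein induced by the unfolded protein response that binds the stress sensor IRE1. In NeuT its level was 15.4 and 13.6 CPM untreated and 19.4 and 20.0 CPM with JG-98, with no overlap. In Empty it was 15.0 and 14.8 CPM untreated and 16.8 and 13.3 CPM with JG-98, so that the treated pair enclosed the untreated one. It rose in NeuT by 0.44 on the log2 scale (SE 0.106, adjusted p = 0.0311 by edgeR). In Empty the change was 0.01 (interval -0.22 to 0.23, adjusted p = 0.992). The difference between the 2 changes was 0.43 (SE 0.152) and did not pass the interaction test (adjusted p = 0.530), so the response is not shown to differ between lines. The authors' deposited table for NeuT gave DNAJB9 a log2 fold change of 0.44 with an adjusted p of 0.0337, the only 1 of 36 members under 0.05 there, and that for Empty had 0 of 36, the lowest being 0.256. The call sat close to the threshold. Leaving out NeuT untreated replicate 1 gave an adjusted p of 0.106 and replicate 2 0.406, leaving out NeuT with JG-98 replicate 2 gave 0.0912, leaving out Empty untreated replicate 1 or 2 gave 0.0614 or 0.0620, and a fit of only the 4 NeuT libraries gave 0.0656. Over the 17 alternatives the log2 fold change ranged from 0.35 to 0.53 and the adjusted p from 0.000498 to 0.406.

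Other ER members did not pass in either line. DNAJB11, or ERdj3, a soluble partner of the ER Hsp70 BiP, had 55.9 and 55.5 CPM in untreated Empty and 57.5 and 52.5 CPM with JG-98. In NeuT it had 45.0 and 44.5 CPM untreated and 41.8 and 46.2 CPM with JG-98. The 2 pairs overlapped in each line, and both log2 changes were -0.02 (adjusted p = 0.961 and 0.918). DNAJC10, or ERdj5, a disulfide reductase of the ER, had 202 CPM in both untreated Empty libraries and 203 and 204 CPM with JG-98. In NeuT it had 186 and 181 CPM untreated and 189.8 and 195 CPM with JG-98, a log2 change of 0.07 (adjusted p = 0.586). Of the 10 ER members, 6 had a positive and 4 a negative change in NeuT, with a median of 0.03.

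The HSE-matching cytosolic members shown above did not pass in either line. DNAJB1 had 237 and 238 CPM in untreated Empty and 257 and 269 CPM with JG-98, without overlap. That change was 0.15 on the log2 scale (SE 0.0515), with an unadjusted p of 0.0108 and an adjusted p of 0.306, so it did not pass. In NeuT DNAJB1 had 270.3 and 263 CPM untreated and 269 and 267 CPM with JG-98, a change of 0.01 (interval -0.10 to 0.12). DNAJA1 had 293 and 306 CPM in untreated Empty and 290.3 and 278 CPM with JG-98. Its NeuT values were 249.7 and 246 CPM untreated and 235 and 231 CPM with JG-98. The treated pairs were the lower ones in both lines, with log2 changes of -0.08 (adjusted p = 0.672) and -0.09 (adjusted p = 0.457) that did not pass. DNAJB6, a suppressor of polyglutamine aggregation, had 143 and 134 CPM in untreated Empty and 143 and 136 CPM with JG-98. In NeuT it had 132 and 128 CPM untreated and 136 and 146 CPM with JG-98, a change of 0.12 (adjusted p = 0.347).

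The other cytosolic members of the panel did not pass either. DNAJA2 had a log2 change of 0.02 in Empty and -0.05 in NeuT (adjusted p = 0.936 and 0.742). For DNAJB2, a J protein with ubiquitin-interacting motifs known best from neurons, the changes were 0.10 and 0.11 (adjusted p = 0.664 and 0.427). DNAJB4, a close relative of DNAJB1, had changes of -0.08 and -0.15 (adjusted p = 0.855 and 0.510). DNAJC7, whose tetratricopeptide repeats bind both Hsp70 and Hsp90, had 79.9 and 83.3 CPM in untreated Empty and 91.6 and 83.2 CPM with JG-98, a change of 0.10 (adjusted p = 0.682). In NeuT DNAJC7 had 77.0 and 81.1 CPM untreated and 78.1 and 85.6 CPM with JG-98, a change of 0.05 (adjusted p = 0.779). The class C members DNAJC5, DNAJC9 and DNAJC15, whose library values are given with the lines, had log2 changes of -0.06, -0.15 and -0.02 in Empty (adjusted p = 0.814, 0.589 and 0.963) and 0.09, 0.01 and -0.03 in NeuT (0.531, 0.977 and 0.910).

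DNAJA4 was too low to place. It had 8 and 9 counts in untreated Empty, 5 and 12 in Empty with JG-98, 16 and 8 in untreated NeuT, and 1 and 3 in NeuT with JG-98. The NeuT pairs did not overlap, but the fitted log2 change of -2.50 rests on few counts and did not pass (adjusted p = 0.147). It had 10 or more counts in 2 libraries, the least the count rule allows. DNAJC12, a cochaperone of the aromatic amino acid hydroxylases, was also low, with 1.39 and 1.47 CPM in untreated Empty, 2.02 and 1.99 CPM in Empty with JG-98, 1.06 and 1.11 CPM in untreated NeuT and 1.09 and 0.703 CPM in NeuT with JG-98. Its log2 change with JG-98 was 0.49 in Empty and -0.28 in NeuT, and neither passed (adjusted p = 0.555 and 0.689).

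DNAJC13, an endosomal J protein that acts with the retromer, showed how far 1 library could move a member. In NeuT it had 71.0 and 60.6 CPM untreated and 69.9 and 93.5 CPM with JG-98, so the second treated library stood above all 7 others and the first within their range. The log2 change of 0.31 did not pass (adjusted p = 0.267). Without NeuT with JG-98 replicate 1, leaving the higher library alone, the change was 0.50 (adjusted p = 5.87e-05) and its interaction 0.52 (adjusted p = 0.00319). That fit called 5 members for JG-98 in NeuT: DNAJB9, DNAJC5 and DNAJC13 higher and DNAJC8 and DNAJC15 lower. Without any filter on low counts DNAJC13 was called too, with the change at 0.31. DNAJC13 was singled out after its values were seen.

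**Figure D3:**
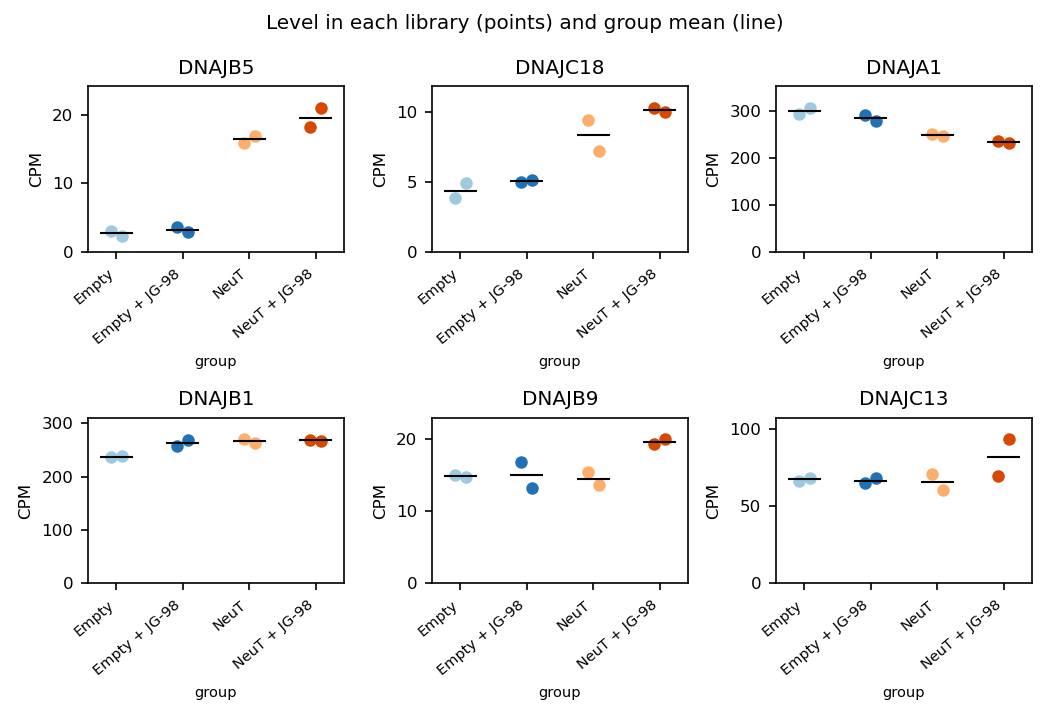
Level in CPM in each library (points, 2 per group) and group mean (line) for 6 DNAJ genes. DNAJB5 and DNAJC18 are higher and DNAJA1 lower in all 4 NeuT libraries than in all 4 Empty libraries, DNAJB9 is highest in the 2 NeuT libraries with JG-98, and DNAJC13 has 1 high library at 93.5 CPM.

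Whether the drug's effect differed between lines was tested directly for each member, as the interaction of line and JG-98. No member passed, against 0.00565% of all genes, which is 1 gene. At an unadjusted p under 0.05 there were 3 members (DNAJA4, DNAJB9 and DNAJC24), against 7.79% of all genes. DESeq2 and limma-voom each called 0 members as well. DNAJC24, which takes part in diphthamide synthesis on elongation factor 2, had 12.3 and 11.9 CPM in untreated Empty and 14.2 and 15.2 CPM with JG-98, against 15.3 and 13.6 CPM and then 12.7 and 14.0 CPM in NeuT. Its interaction was -0.40 on the log2 scale (SE 0.138, adjusted p = 0.530).

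The lines themselves differed in about as many DNAJ genes as in genes at large. Without drug, 19 of 36 members passed, 10 higher and 9 lower in NeuT, against 42% of all genes (21.2% higher and 20.8% lower). Under JG-98, 17 passed, 7 higher and 10 lower, against 41.7% of all genes (21.7% higher and 20% lower). These comparisons use different libraries but the same 2 lines. In all, 11 members passed in the same direction in both, 6 higher (background 16.9%) and 5 lower (15.6%). Of those 11, 8 passed under every alternative tried: DNAJB4, DNAJB5, DNAJC16 and DNAJC18 higher in NeuT and DNAJA1, DNAJB11, DNAJC2 and DNAJC9 lower. Across all 8 libraries, the 4 NeuT and 4 Empty values did not overlap for 20 members (background 45.9%), 7 higher in NeuT (background 23.3%) and 13 lower (22.5%).

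The classes were compared by their counts and medians, without a test of the classes against each other. In untreated cells, class A had 0 higher and 1 lower of 3 with a median log2 difference of -0.13. Class B had 3 and 2 of 9 with -0.04, and class C 7 and 6 of 24 with -0.05. Over all genes the median was -0.02, with 21.2% called higher and 20.8% lower. Under JG-98, class A had 0 higher and 2 lower with a median of -0.28, class B 3 and 2 with 0.02, and class C 4 and 6 with -0.09. Over all genes the median was 0.00, with 21.7% called higher and 20% lower. Class A holds only 3 genes, of which DNAJA4 is near the count limit, so its median is that of 1 or 2 genes. Over 17 alternatives the untreated median ran from -0.20 to -0.11 for class A, from -0.11 to 0.05 for class B and from -0.12 to -0.03 for class C. Under JG-98 it ran from -0.36 to -0.24, from -0.06 to 0.03 and from -0.16 to -0.06, so the class B median changed sign in both comparisons. Scaling by total counts alone, without TMM factors, shifted the median of all genes to -0.08 in untreated cells. It then gave 6 members higher and 15 lower, 28.6% higher against 52.6%, while over all genes called the higher share went from 50.5% to 40.7%: DNAJB1, DNAJC4, DNAJC5 and DNAJC24 were no longer called, and 6 others (DNAJA2, DNAJB6, DNAJB12, DNAJC19, DNAJC21 and DNAJC22) were.

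**Figure D4:**
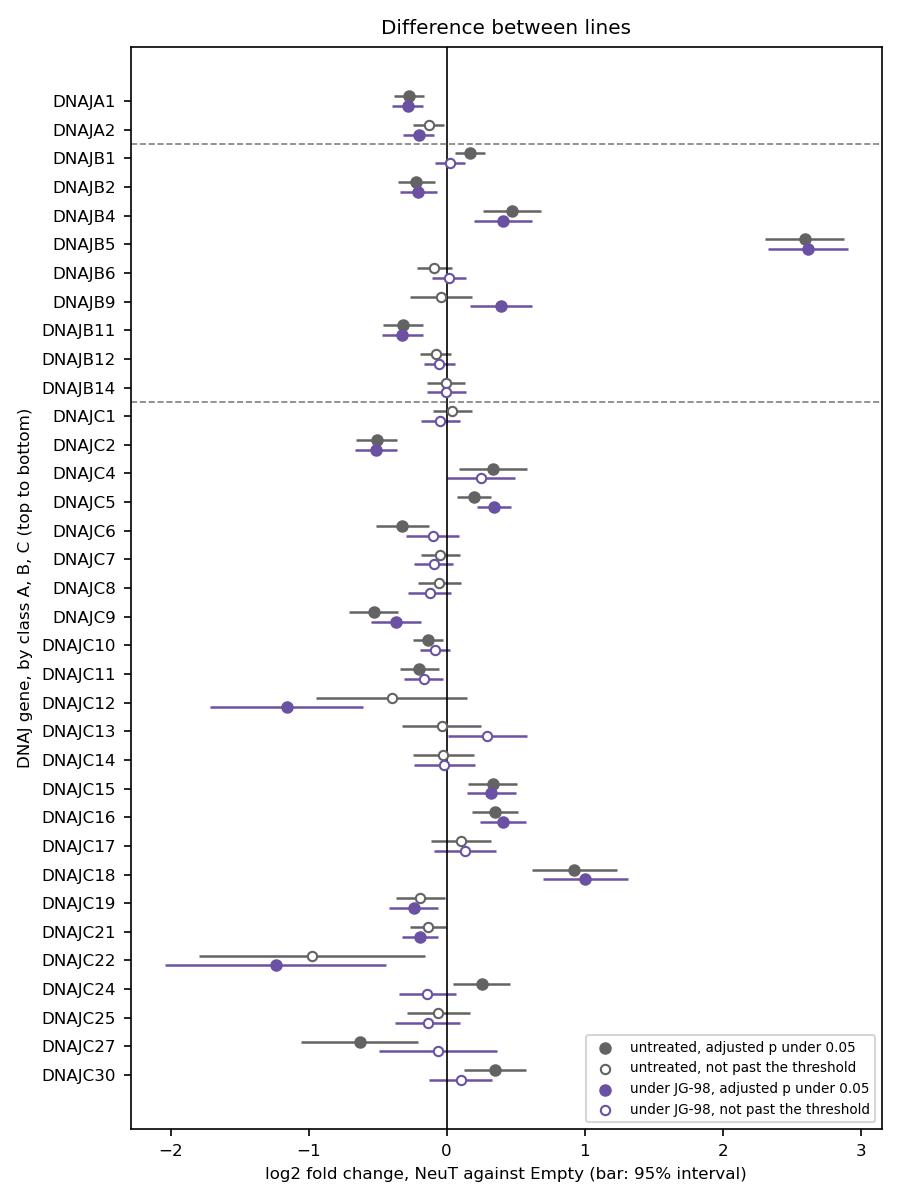
Log2 fold change of NeuT against Empty, untreated (grey) and under JG-98 (purple), for 35 DNAJ genes with 95% intervals as bars; filled points passed an adjusted p of 0.05, and DNAJA4, with at most 16 counts, is left out. DNAJB5 stands apart at 2.59 and 2.62, and DNAJC18 follows at 0.93 and 1.00.

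DNAJB5 showed the widest gap between lines. It is a cytosolic and nuclear relative of DNAJB1 that binds the histone deacetylase HDAC4 in a redox-sensitive complex. DNAJB5 had 3.05 and 2.38 CPM untreated and 3.57 and 2.88 CPM with JG-98 in the Empty libraries. NeuT libraries had 15.9 and 16.9 CPM untreated and 18.1 and 21.0 CPM with JG-98, so all 4 NeuT libraries stood above all 4 Empty libraries. The difference was 2.59 on the log2 scale without drug (SE 0.136, adjusted p = 1.33e-10 by edgeR) and 2.62 under JG-98 (SE 0.136, adjusted p = 1.21e-10). Per kilobase, DNAJB5 nonetheless remained among the low members, at 0.461 CPM per kb in untreated Empty and 2.78 in untreated NeuT. The gene lies at chr9:34989641-34998900, overlaps no exon of another gene, and its listed pseudogenes had 0 counts.

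DNAJB4 differed in the same direction as DNAJB5, by less. It had 10.7, 11.3, 10.7 and 10.1 CPM in the Empty libraries (untreated, then with JG-98) and 15.1, 15.4, 14.8 and 12.8 CPM in the NeuT libraries, without overlap. The log2 difference was 0.47 untreated (SE 0.0987, adjusted p = 0.000918) and 0.41 under JG-98 (adjusted p = 0.00339). DNAJB1, the third of these relatives, overlapped between lines: 0.17 untreated (SE 0.0514, adjusted p = 0.0144) and 0.03 under JG-98 (adjusted p = 0.727). The untreated call for DNAJB1 was lost with total-count scaling (adjusted p = 0.141), without Empty untreated replicate 1 or 2 (0.0974 and 0.0936) and without NeuT untreated replicate 1 (0.103).

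In class A the called genes were lower in NeuT. From the DNAJA1 library values given above, which did not overlap between lines, the log2 difference was -0.27 untreated (SE 0.0523, adjusted p = 0.000409) and -0.28 under JG-98 (SE 0.0524, adjusted p = 0.000306). DNAJA2 had 176, 172, 179 and 175 CPM in the Empty libraries and 159.5, 158, 158 and 149 CPM in the NeuT libraries. The log2 difference was -0.13 untreated, which did not pass (SE 0.0540, adjusted p = 0.0611), and -0.20 under JG-98, which did (adjusted p = 0.00588). In class B, DNAJB2 had 77.0, 72.2, 80.2 and 79.4 CPM in Empty and 62.7, 65.3, 66.4 and 71.9 CPM in NeuT, without overlap. It was lower in NeuT in both comparisons, with log2 differences of -0.22 (SE 0.0631, adjusted p = 0.00939) and -0.21 (adjusted p = 0.0140). Its call was lost in untreated cells without Empty untreated replicate 1 (adjusted p = 0.136) and without NeuT untreated replicate 1 (0.132) or 2 (0.0509). Under JG-98 it was lost without Empty with JG-98 replicate 1 (0.0639) or replicate 2 (just over the threshold, with the log2 difference still -0.21), without NeuT with JG-98 replicate 1 (0.0834) and in a fit of the 4 libraries compared (0.0590). DNAJB6 did not pass in either comparison (-0.09 with adjusted p = 0.251, and 0.02 with adjusted p = 0.863).

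**Figure D5:**
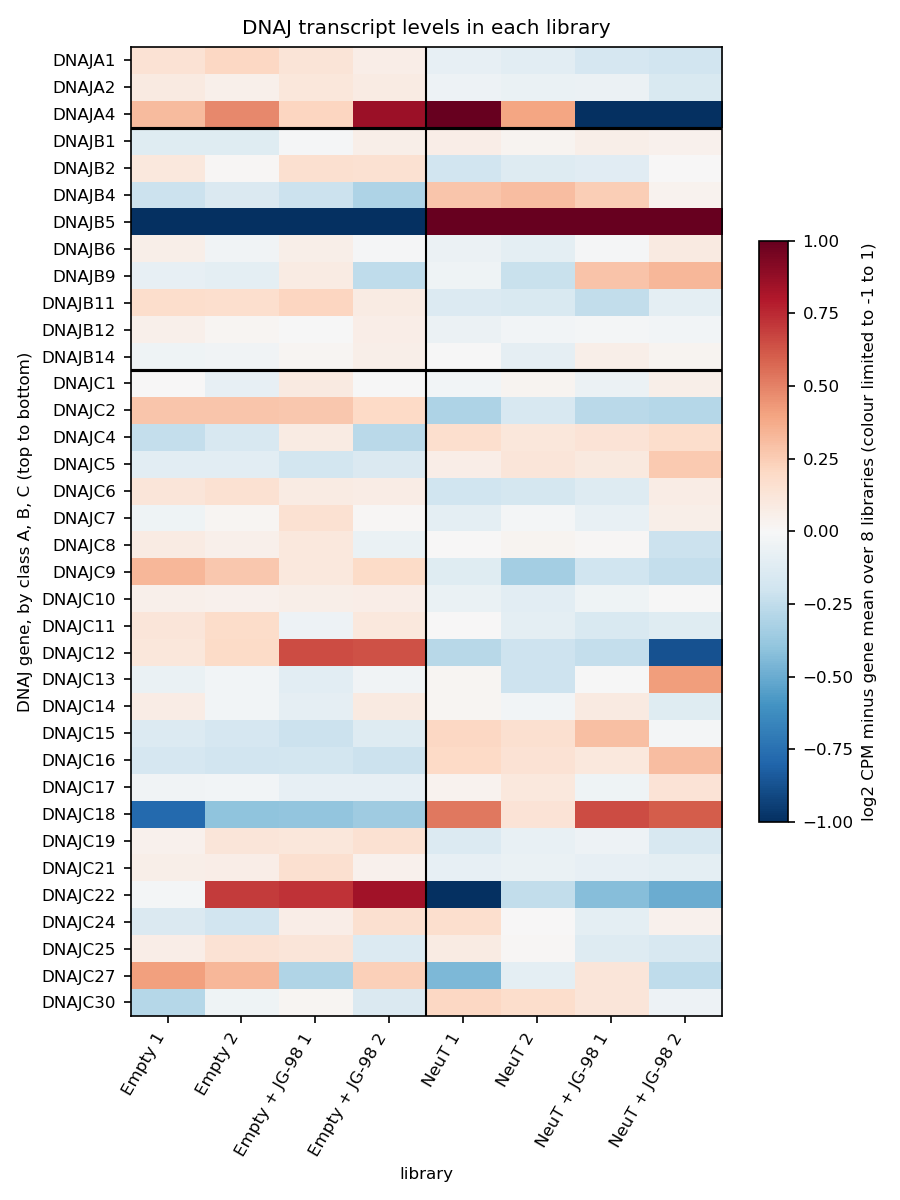
Log2 CPM of each DNAJ gene in each library minus its mean over the 8 libraries (red higher, blue lower, colour limited to 1 either way), with rows in classes A, B and C and the Empty libraries on the left. DNAJB5 and DNAJC18 run from blue in Empty to red in NeuT and DNAJA1, DNAJC2 and DNAJC9 the other way, and DNAJB9 is reddest in the 2 NeuT libraries with JG-98.

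Members of the ER differed in both directions between lines. DNAJC18, an ER membrane J protein, had 3.84, 4.96, 4.99 and 5.15 CPM in the Empty libraries and 9.48, 7.23, 10.3 and 10.0 CPM in the NeuT libraries. It was higher in NeuT, by 0.93 on the log2 scale untreated (SE 0.147, adjusted p = 6.94e-05) and by 1.00 under JG-98 (SE 0.146, adjusted p = 2.82e-05). DNAJC16, also in the ER membrane, had 26.0 to 27.0 CPM in Empty and 32.6 to 37.4 CPM in NeuT (0.35 with adjusted p = 0.00151, and 0.41 with adjusted p = 0.000409). DNAJB11 was lower in NeuT, at -0.32 in both comparisons (SE 0.0695 and 0.0700, adjusted p = 0.00138 and 0.00129), with 52.5 to 57.5 CPM in Empty and 41.8 to 46.2 CPM in NeuT. Its exons share 23.2% of their bases with other genes, and the use of strand in counting is not given in the sources used here, so reads of its neighbours cannot be told apart on those bases. DNAJC10 was lower in untreated NeuT, at -0.14 (SE 0.0514, adjusted p = 0.0432), a call lost in 8 of 17 alternatives, and -0.08 under JG-98 (adjusted p = 0.222). It was lost with RLE factors (0.0598), without a filter (0.102), with at least 10 counts in every library (0.0540), with DESeq2 (0.0591) and without either untreated Empty library (0.186 and 0.165) or either untreated NeuT library (0.149 and 0.335). DNAJB9 was higher in NeuT under JG-98 (0.39, adjusted p = 0.00673), not without Empty with JG-98 replicate 2 (0.23, adjusted p = 0.148), and -0.04 untreated (adjusted p = 0.798). Of the 10 ER members, 2 were higher and 2 lower untreated, and 3 higher and 1 lower under JG-98, which is close to the 42% and 41.7% of all genes called.

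Of the 5 mitochondrial members tested, 3 were higher in untreated NeuT (DNAJC4, DNAJC15 and DNAJC30) and 1 lower (DNAJC11), with a median of 0.33 (42% of all genes were called, 21.2% higher and 20.8% lower). Under JG-98, 1 was higher (DNAJC15) and 1 lower (DNAJC19, of the inner-membrane import motor), with a median of 0.10. DNAJC19 was at -0.24 there (adjusted p = 0.0301), a call lost in 5 of 17 alternatives, with adjusted p up to 0.157. DNAJC15, an inner-membrane protein related to DNAJC19, had 61.9, 60.5, 58.5 and 62.1 CPM in the Empty libraries and 78.3, 75.9, 83.9 and 67.1 CPM in the NeuT libraries. The log2 difference was 0.33 untreated (SE 0.0834, adjusted p = 0.00436) and 0.32 under JG-98 (adjusted p = 0.00546). Under JG-98 the call was lost without Empty with JG-98 replicate 1 (adjusted p = 0.0610) and without NeuT with JG-98 replicate 1 (0.0547). DNAJC30, which lies in the mitochondrion and has been tied to the respiratory chain, had 10.7, 12.7, 13.2 and 11.8 CPM in Empty and 15.1, 14.8, 14.2 and 12.6 CPM in NeuT, with overlap. It was called untreated (0.35, adjusted p = 0.0132), not without Empty untreated replicate 1 (0.185) or NeuT untreated replicate 1 (0.0697), and stood at 0.10 under JG-98 (adjusted p = 0.486). DNAJC4 lost its untreated call (0.34, adjusted p = 0.0268) when any 1 of the 4 untreated libraries was left out, with adjusted p from 0.0652 to 0.152. DNAJC11 did too (-0.20, adjusted p = 0.0235), with 0.0535 to 0.297. THAP3 shares 27.9% of the exonic bases of DNAJC11, which leaves its count uncertain, and other genes share 14.4% of those of DNAJC30 and 13.9% of those of DNAJC4.

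The group named ribosome, RNA and nucleus held 6 members, DNAJC24 of diphthamide synthesis among them. Of these, 1 was higher and 2 lower in untreated NeuT, and 0 higher and 3 lower under JG-98 (42% and 41.7% of all genes were called). DNAJC2, the ribosome-associated J protein that pairs with HSPA14, had 43.2, 43.3, 43.0 and 40.9 CPM in the Empty libraries and 28.9, 32.0, 29.6 and 29.2 CPM in the NeuT libraries. The gap between the lowest Empty and the highest NeuT library was wider than the range within either line. The log2 difference was -0.51 in both comparisons (SE 0.0712 and 0.0719, adjusted p = 1.92e-05 and 1.90e-05). DNAJC9, a histone cochaperone, had 30.6, 29.3, 26.1 and 27.8 CPM in Empty and 22.3, 19.2, 21.1 and 20.6 CPM in NeuT. The log2 difference was -0.53 untreated (SE 0.0846, adjusted p = 7.33e-05) and -0.37 under JG-98 (adjusted p = 0.00208). Other genes, FAM149B1, MRPS16 and DNAJC9-AS1, cover 41.9% of its exonic bases, which leaves its count uncertain. DNAJC21, which helps to mature the large ribosomal subunit, passed under JG-98 alone (-0.19, adjusted p = 0.0182, and -0.14 untreated with adjusted p = 0.0849). It did not pass without Empty with JG-98 replicate 1 (0.162) or in a fit of the 4 libraries compared (0.0801). DNAJC24, whose library values are given above, was the member called higher untreated (0.25, adjusted p = 0.0447). Its call was lost in 8 of 17 alternatives, with adjusted p up to 0.283, and under JG-98 it stood at -0.14 (adjusted p = 0.271). DNAJC8 and DNAJC17 did not pass in either comparison.

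Of the 4 members tested in membrane traffic and vesicles, 1 was higher and 2 lower in untreated NeuT, and 1 higher and 0 lower under JG-98. Over all genes, 42% and 41.7% were called. DNAJC13 passed in neither comparison (-0.04 untreated with adjusted p = 0.844, and 0.29 under JG-98 with adjusted p = 0.0934). DNAJC5 had 158, 158, 149 and 154 CPM in the Empty libraries and 178, 184, 181 and 203 CPM in the NeuT libraries, without overlap. The log2 difference was 0.34 under JG-98 (SE 0.0596, adjusted p = 0.000167), a call that held under all 17 alternatives. Untreated it was 0.20 (adjusted p = 0.0122), lost with total-count scaling (0.0830), without Empty untreated replicate 1 or 2 (0.0807 and 0.0795) and without NeuT untreated replicate 2 (0.0885). DNAJC6, or auxilin, which uncoats clathrin vesicles, had 17.3 to 18.2 CPM in Empty and 14.3 to 17.3 CPM in NeuT. It was lower untreated, at -0.32 (adjusted p = 0.00829), lost without Empty untreated replicate 2 (0.0594) or NeuT untreated replicate 1 or 2 (0.0707 and 0.0578), and -0.10 under JG-98 (adjusted p = 0.414). DNAJC27, a Rab-like GTPase with a J domain, had 4.60 and 4.36 CPM in untreated Empty and 2.54 and 3.25 CPM in untreated NeuT (-0.63, adjusted p = 0.0176). That call was lost without Empty untreated replicate 1 or 2 (0.0938 and 0.0578) or NeuT untreated replicate 1 (0.191), and under JG-98 its difference was -0.06 (adjusted p = 0.837).

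Of the 2 members placed in no such group, both were lower in NeuT under JG-98 (20% of all genes were called lower). DNAJC12 differed by -1.16 (SE 0.262, adjusted p = 0.00170), a call that held under all 17 alternatives, and by -0.40 untreated (adjusted p = 0.241). DNAJC22 differed by -1.24 (adjusted p = 0.0142) on 15 to 60 counts per library, lost without Empty with JG-98 replicate 2 (0.0765) or NeuT with JG-98 replicate 2 (0.0547). Members that passed in no comparison were DNAJA4, DNAJB6, DNAJB12, DNAJB14, DNAJC1, DNAJC7, DNAJC8, DNAJC13, DNAJC14, DNAJC17 and DNAJC25. DNAJB14 and DNAJC14 had log2 differences between -0.02 and 0.00 in both line comparisons. Other genes share 58.1% of the exonic bases of DNAJC14.

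The partners of the J proteins were read from lists of related genes. Of 14 Hsp70 and Hsp110 genes, 11 were tested. HSPA1A had at most 1 count in any library and HSPA1B and HSPA1L 0; their levels were not read. With JG-98, 0 of 11 passed in Empty, against 0.339% of all genes. In NeuT 1 passed, against 3.01% of all genes: HSPA13, a microsomal member of the Hsp70 family, rose by 0.72 (SE 0.106, adjusted p = 0.00180). In Empty HSPA13 changed by 0.06 (adjusted p = 0.912 by edgeR). Its interaction of 0.66 did not pass (adjusted p = 0.349). HSPA8, the constitutive cytosolic Hsp70, changed by -0.08 in Empty (adjusted p = 0.662) and -0.17 in NeuT (adjusted p = 0.0821), and HSPA5, the ER Hsp70 BiP, by -0.13 (0.485) and -0.01 (0.956). Between lines 6 of 11 passed in each comparison, 1 higher and 5 lower untreated and 2 higher and 4 lower under JG-98, against 42% and 41.7% of all genes. HSPA14, the partner of DNAJC2 on the ribosome, was among the lower ones (-0.33, adjusted p = 0.0128, and -0.37, adjusted p = 0.00669), as was HSPA9, the mitochondrial Hsp70 (-0.46 and -0.31). HSPA6, a heat-inducible Hsp70, was higher in NeuT, from 0.387 to 0.733 CPM in the Empty libraries to 1.44 to 2.19 CPM in the NeuT libraries (2.02, adjusted p = 3.82e-05, and 1.41, adjusted p = 0.00116).

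Among 12 nucleotide exchange factors and other Hsp70 cochaperones, 1 passed with JG-98 in NeuT, GRPEL2, an exchange factor of the mitochondrial Hsp70, which rose (0.42, SE 0.0837, adjusted p = 0.0108), and none passed in Empty (background 3.01% and 0.339%). In Empty GRPEL2 changed by 0.22 (adjusted p = 0.369 by edgeR). Its interaction of 0.20 did not pass (adjusted p = 0.711). Between lines 4 of 12 passed in each comparison, 1 higher and 3 lower, against 42% and 41.7% of all genes. STUB1, a ubiquitin ligase that binds Hsp70, was the higher one (0.27 and 0.21), and BAG1 (-0.46 and -0.48) and STIP1, which links Hsp70 to Hsp90 (-0.35 and -0.46), were lower in both. BAG3, the exchange factor whose contact with Hsp70 JG-98 is known to weaken, was at -0.04 in Empty (adjusted p = 0.851) and -0.13 in NeuT (adjusted p = 0.215). Of the J-domain genes with other names, SEC63, HSCB and GAK did not pass with JG-98 in either line, and HSCB was higher in NeuT than in Empty under JG-98 (0.47, adjusted p = 0.0246).

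A list of HSF1 and 8 of its inducible partners was read beside the HSE-matching members. With JG-98, 0 of 9 passed in Empty or in NeuT, against 0.339% and 3.01% of all genes. Between lines all 9 passed in both comparisons, HSF1 higher and the other 8 lower in NeuT, with medians of -0.69 untreated and -0.72 under JG-98. Over all genes, 20.8% and 20% were called lower. HSP90AA1, for example, differed by -0.84 and -0.87. Of the 7 members with a 2-unit HSE match, 3 were called higher and 2 lower in untreated cells (42% of all genes were called): DNAJB1 (0.17), DNAJB4 (0.47) and DNAJC15 (0.33) higher and DNAJA1 (-0.27) and DNAJC6 (-0.32) lower. Under JG-98, DNAJB4 (0.41), DNAJC15 (0.32) and DNAJA1 (-0.28) were called again (41.7% of all genes), and DNAJB1 (0.03) and DNAJC6 (-0.10) were not. DNAJB6 (-0.09 and 0.02) and DNAJA4, on its few counts (0.56 and -2.15), passed in neither. A list of 15 proliferation genes was called lower in NeuT for 15 of 15 genes in both comparisons, with medians of -1.19 and -1.40. With JG-98, 5 of 15 were called lower in NeuT and 0 in Empty, against 1.01% and 0.0791% of all genes. The change with JG-98 was negative for 14 of 15 in NeuT (median -0.22) and for 12 of 15 in Empty (median -0.13). In the interaction test 0 of 15 passed, so the response is not shown to differ between lines. The part of proliferation in the DNAJ differences was not tested.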

How the data were processed

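Poly(A)-selected RNA of 8 MCF-10A libraries was sequenced, and libraries were placed in 4 groups by their titles. The authors deposited 1 table of raw read counts per gene, with exon lengths in an "other" column, and per line a table of their own comparison with log2 fold changes, a test score and p-values, per the file headers. Per the submitters' processing notes, Trim Galore 0.5.0, FastQC 0.11.7, HISAT2 2.1.0, SAMtools 1.9, featureCounts 1.6.3 and limma were used with GRCh38. The use of strand, the handling of reads with several matches and the annotation release are not given in the sources used here. Reads shared with a near-identical copy could therefore be split: summed counts of 8 DNAJB6 pseudogenes came to 7.33% of those of DNAJB6, and those of DNAJC8 pseudogenes to 3.28%.

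Here the deposited counts were fitted with edgeR 4.0.16 in R 4.3.3 (filterByExpr with a minimum count of 10 and total of 15, TMM factors, robust quasi-likelihood fit, 1 coefficient per group over 8 libraries). A gene was called at an adjusted p under 0.05 (Benjamini-Hochberg, 17693 genes). A standard error is the size of the log2 fold change divided by the square root of F. CPM are TMM-scaled, and per kb of exon when genes are compared. An exact permutation of 2 against 2 libraries could not reach 0.05. Total counts of 37341458 to 56861971 limit the precision of low genes. Symbols were found for 60261 of 60617 identifiers. No column of the tables was without a sample (0). On simulated counts for 17123 genes with 200 changed by 1 on the log2 scale, the JG-98 test in NeuT recovered 99% with 12 false calls and the interaction 95.5% with 10. Recovery of smaller changes, such as the 0.44 of DNAJB9 with JG-98 in NeuT, was not tested.

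The members, gene lists, member groups and tests were chosen with earlier results of these data known. Values were given for a panel of 16 genes whatever they showed (DNAJA1 to DNAJA4, DNAJB1, DNAJB2, DNAJB4, DNAJB6, DNAJB9, DNAJB11, DNAJC5, DNAJC7, DNAJC9, DNAJC10, DNAJC12 and DNAJC15), for members called with JG-98, and between lines for the 5 largest called rises and falls with a mean of at least 50 counts. Other members are named for completeness. Alternatives were RLE factors, total counts, no filter, 10 counts in every library, DESeq2 1.42.0, limma-voom 3.58.1, a non-robust fit, a replicate block, the 4 libraries compared, and leaving out each library in turn. Promoter windows came from RefSeq. Protein sequences were not used here.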

Additional observations from a re-analysis of the deposited data

How the results depend on the processing

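Each comparison was refitted under 17 alternatives (16 for the interaction). For JG-98 in Empty all gave 0 members called. For JG-98 in NeuT, 1 as reported, no filter on low counts gave 2, the 4 libraries compared gave 0, and leaving out 1 library gave 0 to 5. For untreated lines (19), leaving out 1 library gave 10 to 21: 11 without either untreated Empty library and 10 without NeuT untreated replicate 1. For lines under JG-98 (17) it gave 13 to 17, and for the interaction (0) 0 to 1. All other settings stayed within 1.5 times the reported count. Whether replicate numbers pair the libraries is not given in the labels. Deviations of same-numbered libraries correlated at -0.101 to 0.244 across 9551 genes, highest between the groups with JG-98. With 2 libraries per group this cannot settle pairing. The replicate block gave 0, 1, 20, 17 and 0 members called in the 5 comparisons.

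Of the 19 and 17 calls between lines, 9 and 11 held under every alternative, and 8 of the 11 calls shared by both comparisons did. Log2 changes that crossed 0 were all of genes not called in that comparison. For JG-98 in Empty, leaving out 1 library gave -0.185 to 0.448 for DNAJA4, -0.0345 to 0.0623 for DNAJB6, -0.166 to 0.173 for DNAJB9 (-0.00193 with no filter and -0.0221 with limma-voom), -0.0856 to 0.0457 for DNAJB11 and -0.0675 to 0.0195 for DNAJC15. For JG-98 in NeuT it gave -0.0206 to 0.0234 for DNAJB1, -0.106 to 0.0450 for DNAJB11, -0.00666 to 0.163 for DNAJC5, -0.0245 to 0.114 for DNAJC7, -0.104 to 0.121 for DNAJC9 and -0.203 to 0.114 for DNAJC15. DNAJC5 and DNAJC15 were called at the far end of their ranges, without NeuT with JG-98 replicate 1. Between untreated lines DNAJB9 ran from -0.120 to 0.0635. The cause of these changes was not tested. Where an arm was left with 1 library, that library was assumed to vary like the other groups. Low counts limit DNAJA4, DNAJC12 and DNAJC22.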
